A study of Mus musculus with 21 samples.

Results

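The genes described here are 9 genes of DNA damage signalling and crosslink repair: Atm, Atr, Brca1, Brca2, Fancd2, Fancm, Helq, Polq and Blm. They are 9 of 19304 protein-coding genes of at least 2 kb whose cover by H3K36me3 peaks was measured in 20 libraries. The list was chosen from earlier results of these same libraries, because Atm and Helq had more cover under methionine restriction. The members' values under restriction are therefore given as a description, without a test. Cover is the percent of a gene body, from the first to the last annotated base, that lies inside the peaks called in a library.

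All libraries came from C2C12, a mouse myoblast line that can form muscle cells in culture. Wild-type (WT) cells were sampled at day 0 and, in either control medium (CTL) or methionine-restricted medium (MR), on days 1 and 5, with 2 replicate libraries per condition. Each of 2 Setd2 knockout (KO) lines gave 1 library in each of the same 5 conditions. The labels give neither the composition of the media nor how the KO lines were made, and nothing says that WT replicates came from separate cultures, so p-values measure only the spread between these libraries. Each KO line is 1 line sampled repeatedly, and the peak names inside its lists call both lines replicates of a KO group.

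H3K36me3 is a trimethyl mark on histone H3 that SETD2 writes behind elongating RNA polymerase, so that it decorates transcribed gene bodies. It is also known as a platform for homologous recombination and mismatch repair factors, though only its position over genes was measured here. ATM and ATR are the kinases that start the checkpoint response, ATM at double-strand breaks and ATR at stalled replication forks. A crosslink that ties both DNA strands together blocks the fork. FANCM helps to recognise it and FANCD2 is ubiquitinated to start its removal, after which BRCA1 and BRCA2 act in homologous recombination. HELQ and BLM are helicases, and POLQ is the polymerase of the end-joining route that uses short stretches of homology. Many of these genes are known to be most active in dividing cells, and myoblasts leave the cell cycle as they form muscle.

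In GRCm38 coordinates, the build named in the submitters' processing notes, Atm lies at chr9:53437122-53536828 on the minus strand and Atr at chr9:95857597-95953217 on the plus strand. Brca1 lies at chr11:101488761-101551955 (minus) and Brca2 at chr5:150522297-150570147 (plus). Fancd2 spans chr6:113531640-113597020, and its strand was not read here. Fancm spans chr12:65074110-65131842 (plus), Helq chr5:100762144-100798661 (minus), Polq chr16:37011741-37095419 (plus) and Blm chr7:80454993-80535148 (minus). The shortest is Helq at 36.5 kb and the longest Atm at 99.7 kb. Other annotated genes overlap 12.2% of Atr, 5.91% of Brca2, 2.3% of Fancd2 and 2.14% of Blm, and none of the other 5.

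Atm, Helq and Brca1 each start head to head with another gene, and the short sequences between each pair are shown because cover on both sides of them is compared further on. They are printed 5′ to 3′ on the strand of the repair gene, from RefSeq on GRCm38.p6, and capitals mark CCAAT or its reverse complement, the letters bound by NF-Y. The gap of Atm to Npat is chr9:53536829-53536888, that of Brca1 to Nbr1 chr11:101551956-101552106, and that of Helq to Mrps18c chr5:100798662-100798758.
Atm to Npat: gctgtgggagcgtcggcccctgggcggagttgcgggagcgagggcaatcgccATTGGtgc
Brca1 to Nbr1: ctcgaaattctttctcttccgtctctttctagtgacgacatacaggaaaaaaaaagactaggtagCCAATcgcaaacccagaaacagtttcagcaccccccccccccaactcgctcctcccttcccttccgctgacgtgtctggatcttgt
Helq to Mrps18c: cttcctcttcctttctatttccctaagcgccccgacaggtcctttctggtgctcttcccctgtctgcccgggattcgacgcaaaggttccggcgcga
The gap of Helq held no match to these letters, and none of the 3 gaps held the E2F letters (TTTCGCG or else TTTGGCG or else TTTCCCG) or the CHR letters (TTTGAA) on either strand. Over the promoter windows of 300 bases, available for 8 of the 9 genes, CCAAT was found in 4 (Atm, Brca1, Fancm and Blm), against 37.4% of all 32851 windows. An E2F match was found in 1, Brca2, against 5.58% of windows, and the CHR letters in 1, Polq, against 17.9%. The windows of Fancm (chr12:65075353-65075652) and Brca2 (chr5:150522371-150522670) lie inside the gene bodies given above, so their starts are not the first annotated base. These are matches of letters and not measured binding.

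WT lists held 63423 to 87398 peaks over 110 to 183 Mb, and KO lists held 127 to 64530 peaks over 0.00821 to 74.1 Mb. Read depth is unknown from peak lists, so short lists may reflect few reads, and restricted WT lists were shorter than control lists of the same day. All 10 muscle markers had peaks in WT, and Myog, myogenin, had a mean cover of 71.9% and 92.6% in the day 1 and day 5 control groups and was listed at 0 in the other 3 groups. Summed over the 10 muscle markers, mean cover was 336% at the start, 538% and 765% without restriction on days 1 and 5, and 194% and 289% with it. Of 12 markers of blood, endothelium, epithelium and neurons, 9 had no peak in any WT library, Cdh1 and Rbfox3 reached at most 0.438% and 0.0678%, and Cd68, a short gene, was covered up to 100%. Summed over these 12 markers, mean cover was 100% at the start, 98.5% and 96.3% without restriction on days 1 and 5, and 0.0339% and 7.94% with it. All or nearly all of each sum came from Cd68, other than at day 1 under restriction, where Cd68 was listed at 0 and Rbfox3 made up the sum. The part of these marker differences, or of list length, in the results on the repair genes was not tested. In bulk chromatin a change in the share of cells and a change per cell cannot be told apart. Peaks over Setd2 itself covered 45.6% to 82.8% of the gene in WT, 0% to 24.0% in KO line 1 and 0% in every library of line 2, which measures the mark and not the deletion.

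At day 0 the repair genes were covered in part. Helq had the highest mean at 87.3% ± 3.69 (SD, n = 2), followed by Brca1 at 75.4% ± 2.93 (SD, n = 2), Fancm at 55.1% ± 11.2 (SD, n = 2) and Atm at 50.9% ± 17.7 (SD, n = 2). Brca2 at 45.0%, Polq at 44.1% and Fancd2 at 34.1% came next, and Blm at 25.7% and Atr at 24.9% were lowest. From Fancm to Polq, neighbours in this order differed by less than their spread, and Atr alone ranged from 9.2% to 40.6%. The median member had 45.0%, against 55.2% over the 9514 tested genes, those whose cover averaged 5% or more in the 10 WT libraries. All 9 members passed this filter.

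**Figure D1:**
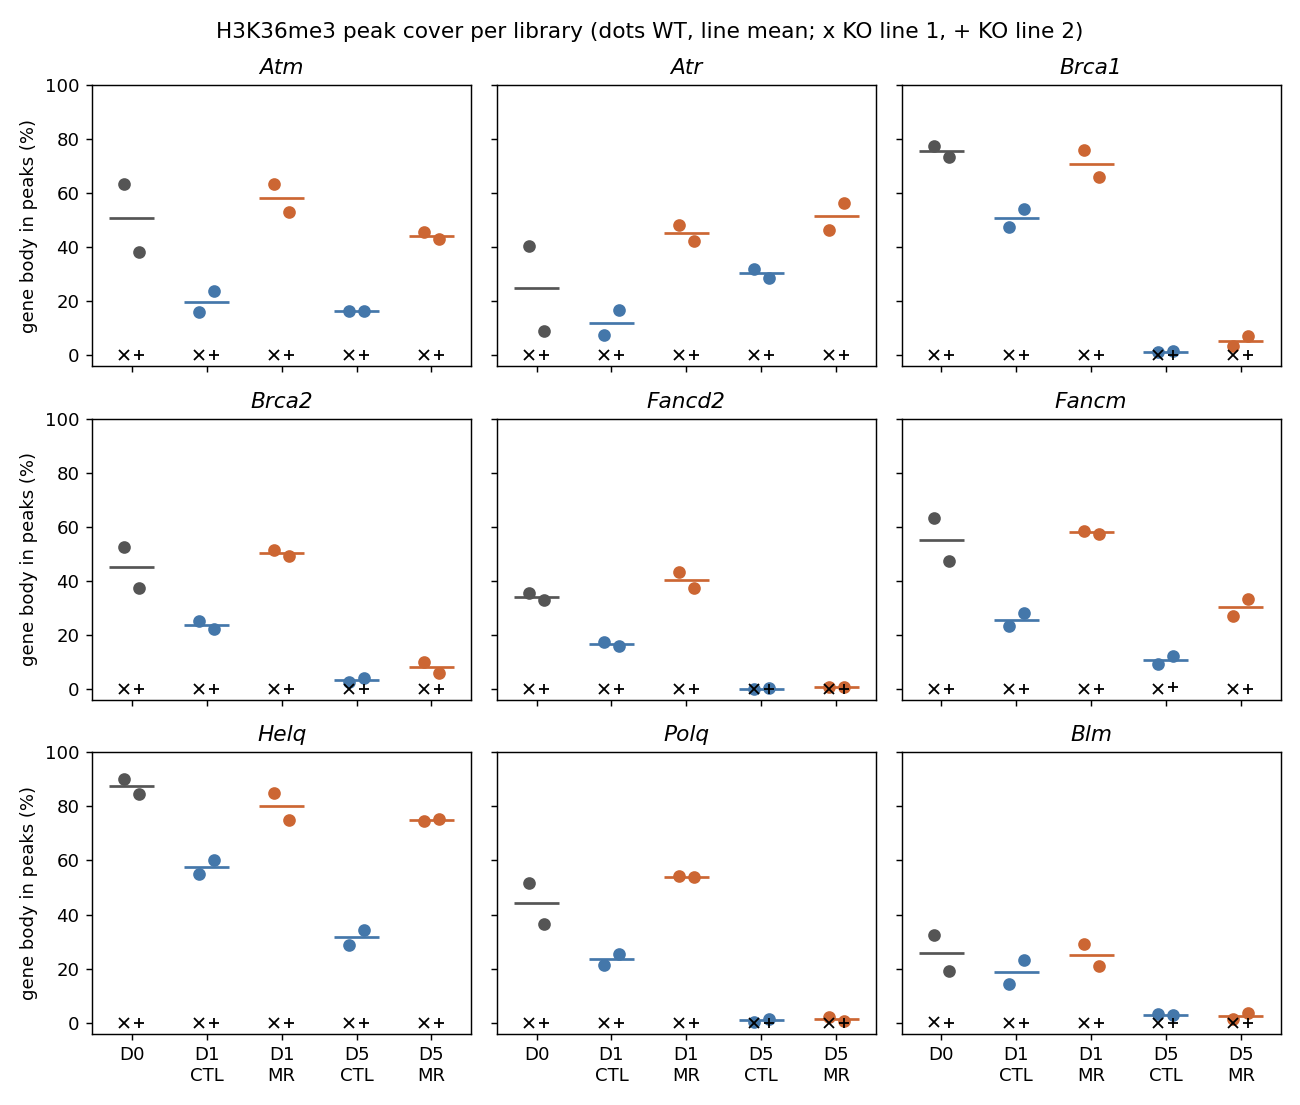
Percent of each gene body inside H3K36me3 peaks (vertical axes) by condition (horizontal axes), 1 panel per gene. Dots are the 2 WT libraries of a condition and lines their mean, crosses are KO line 1 and plus signs KO line 2. At day 1 the restricted dots lie above the control dots for every gene other than Blm, and all KO symbols lie at or near 0.

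Under restriction at day 1 the members stood opposite to most of the genome. In 8 of 9 members both restricted libraries lay above both control libraries, the exception being Blm, while 10.8% of tested genes had this order and 59.6% had the reverse. The median member differed by 26.5 points of cover and the median tested gene by −7.99. The list was chosen partly on these differences, so the contrast with the background is a description. In the 2261 tested genes within the members' length range, 17% had this order and the median difference was −3.83 points.

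The kinase genes had the largest day 1 differences. Atm covered 15.9% and 23.8% in the control libraries at day 1 and 63.5% and 53.2% in the restricted ones, a difference of 38.5 points. Its day 0 libraries, at 63.4% and 38.3%, lay one near the higher restricted library and one below both. Atr covered 7.45% and 16.7% in control medium and 48.4% and 42.4% under restriction, 33.3 points apart. For both genes every restricted library lay far above the higher control library.

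Both recombination genes had more cover under restriction. Brca1, whose protein recruits the recombination machinery, covered 47.4% and 54.0% in control medium and 75.8% and 66.0% under restriction, a difference of 20.2 points. Brca2, whose protein acts in homologous recombination, went from 25.2% and 22.4% in control libraries to 51.4% and 49.2% in restricted ones, 26.5 points apart. In both genes the restricted and control libraries did not overlap, and the restricted values lay close to those of day 0, 77.5% and 73.4% for Brca1 and 52.6% and 37.4% for Brca2.

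The crosslink genes gave a like picture. Fancd2 covered 17.3% and 16.1% in control medium and 43.4% and 37.3% under restriction, a difference of 23.6 points. Fancm covered 23.2% and 28.0% against 58.6% and 57.4%, a difference of 32.4 points. Day 0 values were 35.4% and 32.9% for Fancd2 and 63.1% and 47.2% for Fancm, again near the restricted values of day 1.

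Among the helicases and the polymerase, Helq and Polq followed and Blm did not. Helq covered 55.0% and 60.2% in control medium and 84.8% and 75.1% under restriction, 22.3 points apart. Polq covered 21.4% and 25.4% against 54.1% and 53.7%, a difference of 30.5 points and the closest pair of restricted replicates among the members. Blm covered 14.3% and 23.1% in control medium and 29.3% and 21.0% under restriction, so its groups overlapped, with a mean difference of 6.47 points (2.04 without control replicate 1, 2.28 without restricted replicate 1, and 10.9 and 10.7 without the other control or restricted library).

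The mean cover of restricted day 1 libraries was above that of day 0 in 6 of 9 members (Atm, Atr, Brca2, Fancd2, Fancm and Polq), against 8.1% of tested genes. None of the 9 had a mean above day 0 in control medium at day 1, against 16.2% of tested genes. Members with a mean cover of at least 50% numbered 4 at day 0, 2 in the day 1 control group and 6 in the day 1 restricted group. Each WT list was also shortened to the length of the shortest, restricted day 1 replicate 2, dropping the peaks with the lowest −log10 q. The cut lay at 2.07 in restricted day 1 replicate 1 and at 2.54 and 2.78 in the day 1 control lists. This setting thus took more from the control lists than from the restricted ones. In it 9 of 9 members had both restricted libraries above both control libraries at day 1, against 26.9% of tested genes. Their differences then ran from 18.8 points in Blm to 53.7 in Atm. With peaks of a −log10 q of at least 3 alone, the count was 9 of 9 against 7.59%. The members' median difference was 45.8 points in lists of equal length and 13.6 with this limit on q, and that of all tested genes −2.44 and −7.36.

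At day 5 the members separated into genes with cover in restricted libraries and genes with almost none in either medium, a grouping seen in the data and not tested. Both restricted libraries lay above both control libraries in 7 of 9 members, against 13.9% of tested genes (65.4% had the reverse order). The median member differed by 4.6 points and the median tested gene by −9.16. Both days together gave this order in the same 7 members, which leave out Polq and Blm, and in 5.46% of tested genes.

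Helq had the largest day 5 difference of the members. It covered 28.9% and 34.3% in control medium and 74.4% and 75.4% under restriction, 43.3 points apart, and no control library came near the restricted ones. Atm covered 16.6% in both control libraries and 45.6% and 42.9% under restriction, a difference of 27.6 points. Atr covered 32.1% and 28.6% against 46.5% and 56.5%, a difference of 21.2 points. Fancm covered 9.44% and 12.2% against 27.0% and 33.4%, a difference of 19.4 points. In these 4 genes restricted and control libraries did not overlap at either day.

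The other 5 members had little cover left at day 5 in either medium. Brca1 covered 1.19% and 1.49% in control medium and 3.46% and 7.34% under restriction. Brca2 covered 2.79% and 4.22% against 10.1% and 6.08%. Fancd2, the substrate of crosslink-induced ubiquitination, was listed at 0 and at 0.463% in control medium and at 0.965% and 0.746% under restriction. These 3 genes count among the 7 above, with differences of 4.06, 4.6 and 0.624 points. Without restricted replicate 1 the difference of Brca2 was 2.58, without restricted replicate 2 that of Brca1 was 2.12, and without control replicate 1 that of Fancd2 was 0.392. Polq covered 0.37% and 1.46% against 2.12% and 0.813%, and Blm 3.15% and 2.85% against 1.48% and 3.67%, both with overlapping groups. With peaks of a −log10 q of at least 3, 3 of 9 members (Atm, Atr and Helq) had this order, against 18.5% of tested genes. Lists of equal length were cut at a −log10 q of 3.51 and 3.18 in the day 5 control libraries and of 2.36 and 2.57 in the restricted ones. In these lists 7 of 9 had this order, against 31.1% of tested genes. Only 5 of them were among the 7 above: Brca1 and Fancd2 lost the order, and Polq and Blm gained it. The members' median difference was 4.98 points in lists of equal length and 0.59 with the limit on q, and that of all tested genes −0.275 and −4.6. Under both settings Fancd2 was listed at 0 in all day 5 WT libraries.

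**Figure D2:**
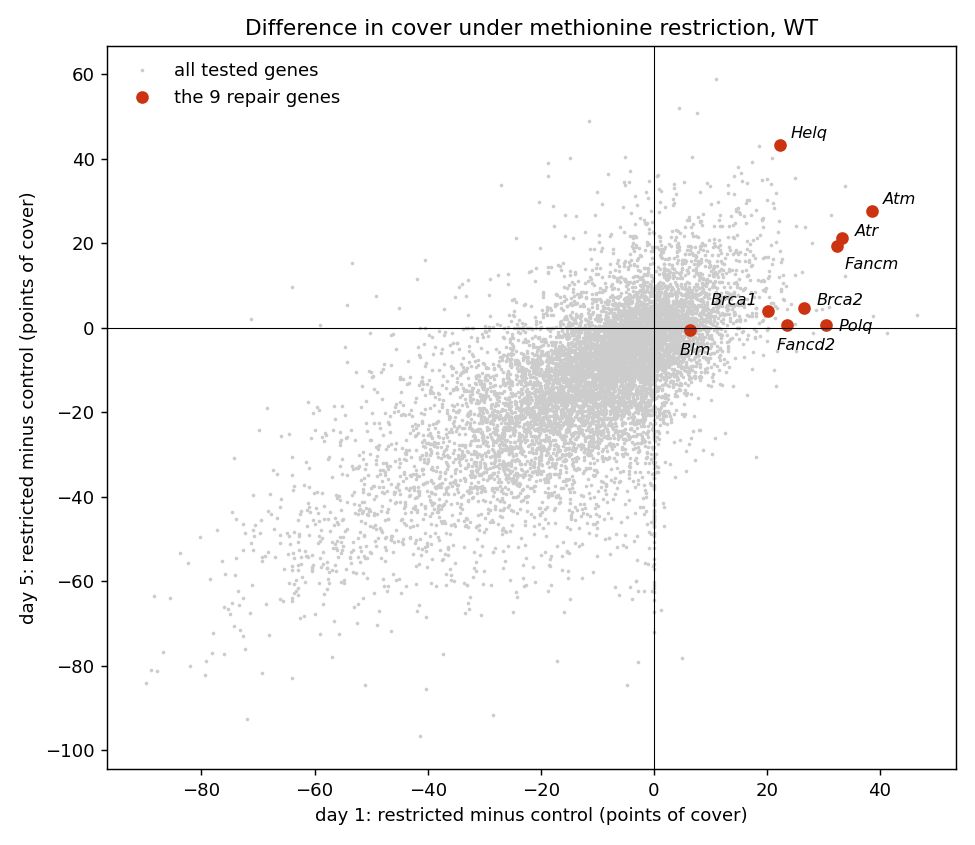
Restricted minus control mean cover in WT, in points, at day 1 (horizontal axis) and day 5 (vertical axis), for the 9514 tested genes (grey) and the 9 repair genes (red). Atm, Atr, Fancm and Helq lie to the upper right, Brca1, Brca2, Fancd2 and Polq lie right of the centre near 0 on the vertical axis, and Blm lies near the origin.

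The time course in control medium was tested for the 7 members other than Atm and Helq, whose control libraries had entered the choice of the list. It used limma over all 9514 genes with Benjamini-Hochberg adjustment. Between day 0 and day 1, 5 of these 7 genes fell, against 5.67% of tested genes called lower and 0.967% called higher. The 5 are Brca1, Brca2, Fancd2, Fancm and Polq, with Fancm down most, from 55.1% to 25.6% (−29.5 points, SE 5.43, limma adjusted p = 0.0194). Fancd2 fell by 17.5 points (SE 2.8, limma adjusted p = 0.0116). Brca1, Brca2 and Polq also fell, with differences of −24.7, −21.3 and −20.7 points (limma adjusted p = 0.0192, 0.039 and 0.0386). Atr and Blm differed by −12.9 and −7.02 points and were not called (limma adjusted p = 0.417 and 0.411). Atm and Helq, given without a test, had differences of −31.0 and −29.7 points.

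These day 1 calls were not firm. None of the 7 was called by limma with the day 0 and day 1 control libraries alone, where 0 of 9514 genes passed and 5 of the 7 had an unadjusted p under 0.05. Lists of equal length were cut at a −log10 q of 3.88 and 4.01 at day 0 and of 2.54 and 2.78 in day 1 control libraries, so more was taken at day 0. None was called by limma when either day 1 control library was left out (5 of 7 unadjusted in both cases) or in lists of equal length (0 of 7 unadjusted), where Brca1 and Brca2 turned to 0.197 and 2.59 points. Without day 0 replicate 1 there were 2 calls, without day 0 replicate 2 there were 6 (Atr added, limma adjusted p = 0.0316), and without any 1 of the 6 other WT libraries 3.

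Between day 0 and day 5 in control medium 6 of the 7 fell, against 15.6% of tested genes called lower and 12.2% higher. Brca1 fell by 74.1 points, from 75.4% to 1.34% (limma adjusted p = 9.64e-06). Fancm, Polq, Brca2, Fancd2 and Blm fell too, with differences of −44.3, −43.2, −41.5, −33.9 and −22.7 points (limma adjusted p from 4.3e-05 for Fancd2 to 0.0093 for Blm). Atr, at 24.9% and 30.3%, was not called (difference 5.43, limma adjusted p = 0.723). Its day 0 libraries, at 40.6% and 9.2%, lay on either side of its day 5 control libraries, so its direction depends on which is kept. Without day 0 replicate 1, the high one, the difference was 21.1 points. In lists of equal length 2 of the 7 fell, Brca1 and Polq. When either day 5 control library was left out the count was 5, Blm being lost (limma adjusted p = 0.0559 and 0.057).

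Between days 1 and 5 in control medium 4 of the 7 fell, against 5.95% of tested genes called lower and 17.1% called higher. Brca1 fell by 49.3 points (limma adjusted p = 0.000135), and Polq, Brca2 and Fancd2 gave −22.5, −20.3 and −16.5 points (limma adjusted p = 0.00983, 0.0182 and 0.00355). Blm and Fancm differed by −15.7 and −14.8 points (limma adjusted p = 0.0521 and 0.0871), and both were called when either day 0 library was left out. Atr differed by 18.3 points (limma adjusted p = 0.193). Leaving out either day 0 library, 40.6% and 9.2% for Atr, left this difference as it was and changed only the shared estimate of the spread. With the compared libraries alone limma called 1 of the 7 higher and 6 lower. The count was 0 with peaks of a −log10 q of at least 3, where 5 members were tested and 1 had an unadjusted p under 0.05 by limma, and 1 in lists of equal length. It was 3 without day 1 control replicate 1, and 2 without day 1 control replicate 2 or when either day 5 control library was left out. Helq and Atm, untested, differed by −26.0 and −3.25 points. The day 1 control libraries of Atm, 15.9% and 23.8%, lay on either side of its 16.6% at day 5.

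In the Setd2 KO lines the repair genes were almost free of peaks. Atm, Brca1, Brca2, Helq and Polq were listed at 0 in all 10 KO libraries, a count with no share of all genes beside it. The other 4 had small values in 6 gene and library pairs in all, the highest 0.85% for Fancm in line 2 at day 5 in control medium. Mean cover over all conditions was 15 points (Blm) to 66.3 points (Helq) higher in WT. WT values of Atm and Helq had entered the choice of the list, so theirs are a description. The other 7 members were all called with more cover in WT in the exact permutation test within conditions, two-sided and adjusted over 19304 genes. Of all these genes 50.5% were called with more cover in WT and 0.901% with less. All 7 averaged 5% or more in WT, as did 9514 of the 19304 genes, and the share called among those 9514 is not given here.

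The exact permutation p was 0.000257 for 6 of the 7, the smallest that the test's arrangements allow (adjusted 0.00067), and 0.000772 for Fancd2 (adjusted 0.00182). Both KO libraries lay below both WT libraries in all 5 conditions for 8 of the 9 members, against 38.4% of all genes and 75.3% of the 9514. For Fancd2 this held in 4 conditions. The arrangements treat the 5 conditions as separate, although each KO line was sampled in all of them. Both KO lists at day 1 under restriction were very short, at 791 and 127 peaks, and leaving that condition out kept all 7 calls. At day 5 KO line 1 had 64530 peaks in control medium, and Atr, at 0.3%, was the single member with a peak there. The share of all genes with a peak in that library is not given here.

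The number and length of the covered stretches within the gene bodies differed between members and media. Over the WT libraries the strongest peak on Atm had an authors' fold enrichment of 3.5 to 4.33 and a −log10 q of 3.28 to 5.45, and that on Helq 3.26 to 4.26 and 3.43 to 5.95. Atm at day 1 had a mean of 28.0 covered stretches with a longest of 1.98 kb in control medium, and 39.5 stretches with a longest of 6.78 kb under restriction. At day 5 these were 27.5 and 2.15 kb against 39.0 and 4.0 kb. In Atm the restricted libraries thus had more stretches at both days, while the longest stretches overlapped between media at day 5, at 1.74 and 2.55 kb in control libraries and 2.36 and 5.65 kb in restricted ones.

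Helq showed fewer and longer stretches instead. Its mean number was 17.5 with a longest of 4.1 kb at day 1 in control medium, and 8.5 with a longest of 8.81 kb under restriction. At day 5 it went from 15 stretches and 2.0 kb to 10.5 stretches and 7.62 kb. Brca1 at day 1 went from 25 stretches and 4.02 kb to 20.5 and 12.7 kb. Its numbers of stretches overlapped between media, at 22 and 28 in control libraries and 18 and 23 in restricted ones.

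Each gene body was cut at its midpoint into a 5′ and a 3′ portion of equal length. Most genes carried more cover in the 3′ portion. This held for 88.1% of the 7711 tested genes with a known strand at day 0, with medians of 35.5% in the 5′ portion and 76.8% in the 3′ portion. Brca2 followed it most among the members, with 23.2% and 66.8%, and Brca1 had 69.5% and 81.4%. Atr, with 29.2% and 20.6%, had more cover in the 5′ portion in both libraries. Polq had 44.7% and 43.6%, with libraries that went opposite ways, at 54.6% and 48.7% in replicate 1 and 34.7% and 38.5% in replicate 2. Atm at day 0 had 48.6% and 53.1%.

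In Atm the medium went with where the cover lay. The 3′ portion of Atm had 14.7% in control medium and 61.8% under restriction at day 1, and 9.69% and 46.3% at day 5. Its 5′ portion had 25% and 55.0% at day 1, and 23.5% and 42.2% at day 5. In each control library of days 1 and 5 Atm thus had more cover in its 5′ portion, and in each restricted library more in its 3′ portion. The restricted libraries ranged from 57.4% and 69.6% (5′ and 3′) in day 1 replicate 1 to 42.3% and 43.6% in day 5 replicate 2. Helq had a higher mean in its 3′ portion in every group, with 34.5% there against 28.8% in the 5′ portion of the day 5 control group, and 83.2% against 66.6% in the restricted one. The day 5 control libraries differed in this, replicate 1 having 36.7% in the 3′ and 21.2% in the 5′ portion and replicate 2 32.3% and 36.3%. These values are means of 2 libraries and were not tested.

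**Figure D3:**
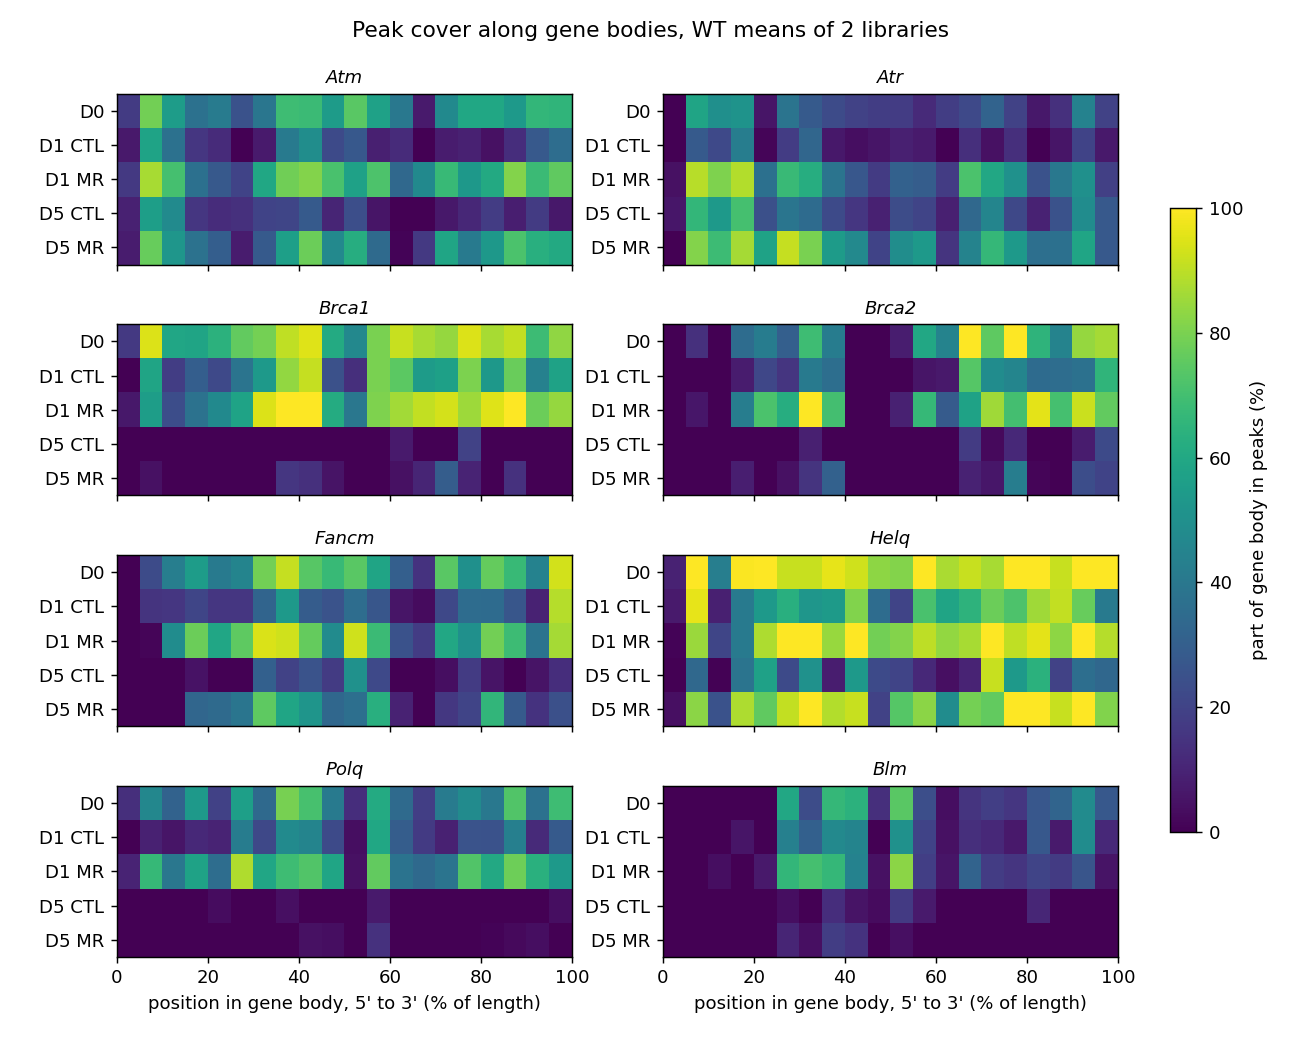
Mean cover of the 2 WT libraries of each condition (rows) in 20 equal parts of the gene body from the 5′ to the 3′ end (horizontal axes, percent of gene length), with color giving the percent of each part inside peaks. Fancd2, whose strand was not read, is left out. In Atm the control rows fade toward the 3′ end, and in Brca1, Brca2, Polq and Blm both day 5 rows are nearly empty.

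The genes that share a start region with Atm and Helq were not called under restriction. Npat, a histone gene activator that starts 60 bp from Atm, covered 47.4% and 62.3% in control medium at day 1 and 69.1% and 62.7% under restriction (difference 11.1 points, limma adjusted p = 0.339), so that both restricted libraries lay above both control libraries, as in Atm. At day 5 the difference was −0.299 points (limma adjusted p = 0.988). Mrps18c, a mitochondrial ribosomal protein gene 97 bp from Helq, differed by 9.27 points at day 1 and −7.29 at day 5 (limma adjusted p = 0.559 and 0.64). That neither was called at either day does not show that it was unchanged.

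On the other side of the Brca1 and Fancm starts the neighbours fell. Nbr1, an autophagy receptor gene 151 bp from Brca1, fell by 17.5 points at both days (limma adjusted p = 0.0131 at day 1 and 0.0109 at day 5). It covered 90.9% and 91.3% at day 5 in control medium, where Brca1 covered 1.19% and 1.49%. Fkbp3, 171 bp from Fancm, fell as well (−24.6 points at day 1 and −31.5 at day 5, limma adjusted p = 0.0364 and 0.011). Called lower under restriction were 36% of tested genes at day 1 and 41.5% at day 5. The difference between a member and its neighbour was not tested.

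**Figure D4:**
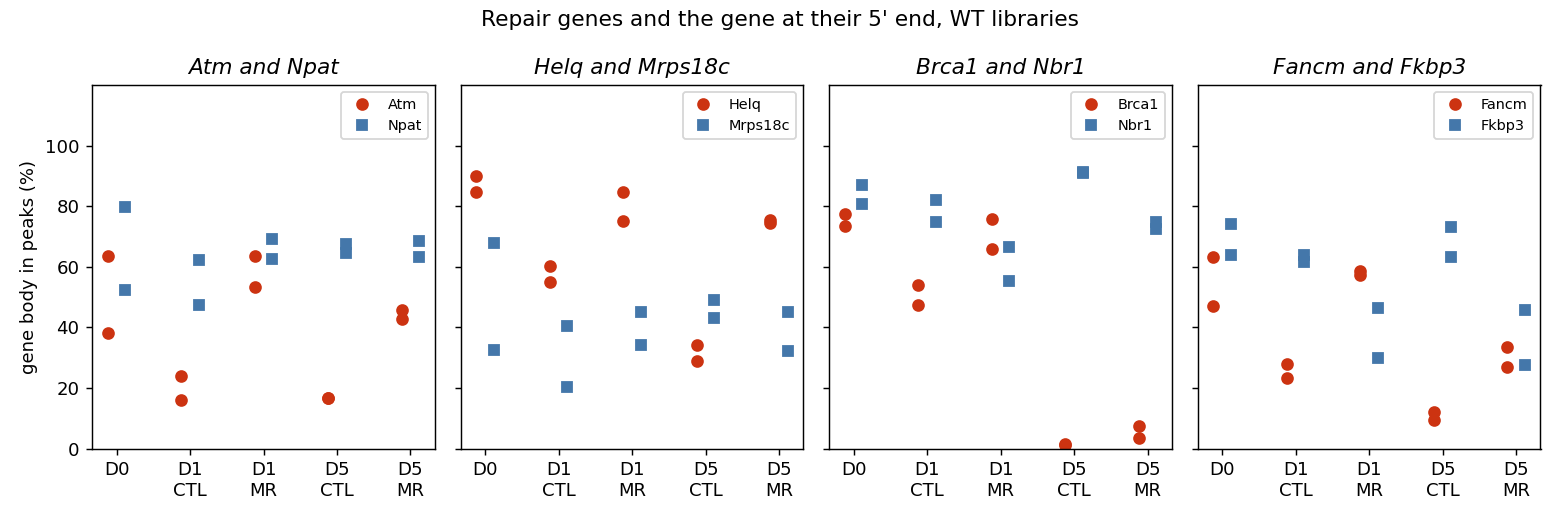
Percent of the gene body inside peaks in each WT library (vertical axis) by condition (horizontal axes) for 4 repair genes (red dots) and the gene at their 5′ end (blue squares). At day 5 in control medium Npat lies at 64.6% to 67.5% where Atm lies at 16.6%, and Nbr1 lies above 90% where Brca1 lies below 2%.

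Other flanking genes were mixed. Xrn1, an RNA exonuclease gene 1.53 kb downstream of Atr, covered 55.0% to 87% over the WT libraries and was not called under restriction (9.29 points at day 1 and 10.6 at day 5, limma adjusted p = 0.351 and 0.267). Emc3, 1 bp from Fancd2, was not called (−9.52 and −11.2 points, limma adjusted p = 0.101 and 0.0531), and on the other side Brk1, at 7.75 kb, fell (−37.5 points at day 1 and −36.9 at day 5, limma adjusted p = 0.00643 and 0.00572). Furin, 49.6 kb from Blm, fell likewise (−20.6 and −12.7 points, limma adjusted p = 0.00338 and 0.0246), while Crtc3, 51.5 kb on its other side, was not called (−0.624 and −5.77 points, limma adjusted p = 0.89 and 0.147). Both genes beside Polq and both beside Brca2 had a mean WT cover under 1%, so the cover of these members was not shared by adjoining genes.

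Over other repair genes restriction gave a mixed result. Lists of 118 genes in 8 pathways were used, 103 of them tested, and the rule for the 9 names none of them. At day 1, 13 rose and 19 fell by limma, 12.6% and 18.4% of the 103, against 2.38% and 36% of all tested genes. At day 5, 10 rose and 18 fell, against 4.32% and 41.5%. Their median differences were 0.42 points (day 1) and 0.773 points (day 5), beside −7.99 and −9.16 over all tested genes.

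The split between rises and falls depends on the scale. With each library centred on its median, 66 rose and 5 fell at day 1, and 74 rose and 3 fell at day 5, a setting that moves the median difference of all tested genes from −7.99 to 7.2 points at day 1 and from −9.16 to 7.52 at day 5. Of all 9514 genes, 37.0% rose and 13.1% fell at day 1 on that scale, and 39.5% and 14.7% at day 5. In lists of equal length, cut further in control than in restricted libraries, 97 repair genes were tested. Of these 31 rose and 10 fell at day 1, and 31 rose and 12 fell at day 5. Of all 8362 genes tested 10.1% rose and 23.6% fell at day 1, and 17% and 24.8% at day 5. Without any 1 WT library the counts at day 1 ranged from 4 to 20 risen and 8 to 20 fallen, and at day 5 from 5 to 10 and 8 to 18.

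By pathway at day 1, 3 of 16 tested crosslink genes rose and 2 fell, and 4 of 24 homologous recombination genes rose and 4 fell. In nucleotide excision repair 0 of 10 rose by limma (1 unadjusted) and 3 fell, and in base excision repair 1 of 12 rose and 5 fell. Their falls, 30% and 41.7% of these lists, were near the 36% of all tested genes called lower at day 1, beside 2.38% called higher. At day 5 the crosslink list had 0 of 16 risen by limma (1 at an unadjusted p under 0.05) and 1 fallen, and the damage checkpoint list had 3 of 18 in each direction, against 4.32% of all tested genes risen and 41.5% fallen. The effect of restriction differed between days in 1 gene upward, Pcna, and in 1 downward, Wee1, against 1.62% and 3.58% of all tested genes (limma). Neither call was firm: Pcna lost its call without any 1 of 7 libraries (limma adjusted p = 0.0613 to 0.106), and Wee1 without any 1 of 7 and with the replicate block (limma adjusted p = 0.0577 to 0.139 and 0.0698). Of the 103 other repair genes 1, Hus1, was called higher at both days, against 76, or 0.799%, of all 9514 tested genes. Hus1 made up 7.69% of the 13 repair genes called higher at day 1 and 10% of the 10 at day 5. Among all tested genes those 76 stood beside 226 called higher at day 1 and 411 at day 5.

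**Figure D5:**
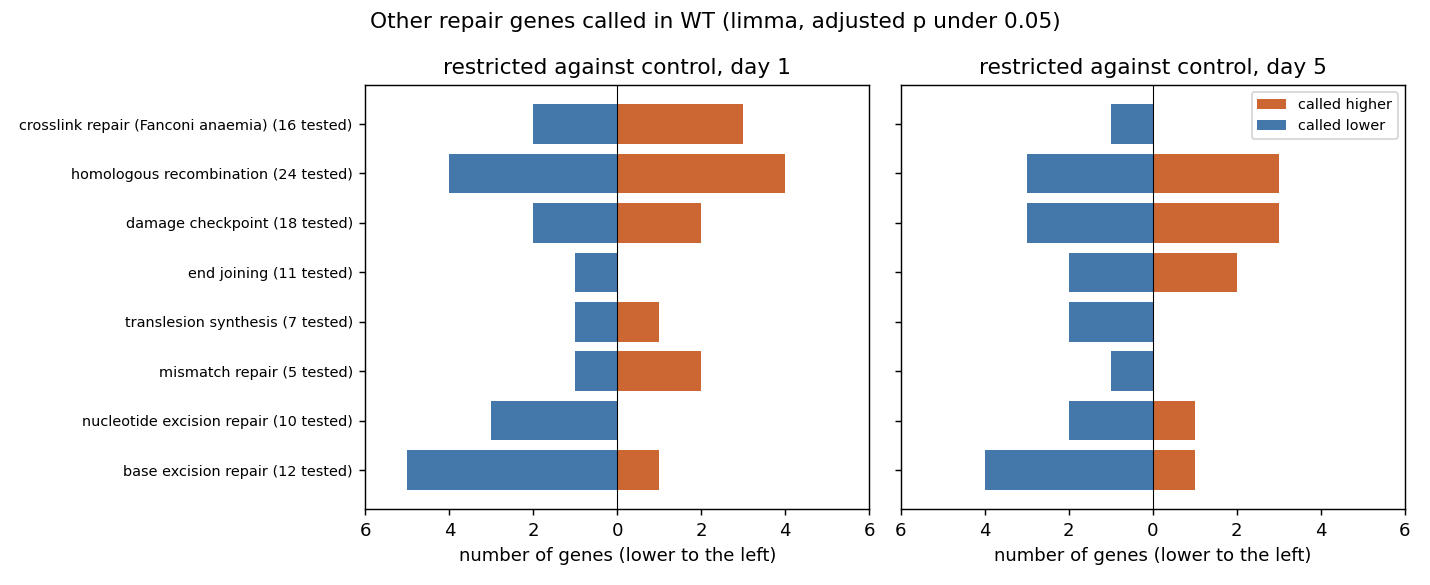
Number of other repair genes called by limma (adjusted p under 0.05) in WT, restricted against control medium, at day 1 (left panel) and day 5 (right panel), by pathway. Bars to the right count genes called higher and bars to the left genes called lower, and the label gives the number tested. The crosslink list has 3 genes to the right at day 1 and none at day 5.

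Palb2, which joins BRCA1 to BRCA2, had the largest rise at day 1, from 28.3% ± 5.0 to 59.4% ± 2.44 (SD, n = 2, 31.0 points, limma adjusted p = 0.00137). At day 5 Palb2 had 2.93% in control and 7.74% in restricted libraries, low in both like Brca1 and Brca2. Rad18, a ubiquitin ligase of lesion bypass, rose from 25.6% to 46.9% and Ung, the uracil glycosylase, from 19% to 40.0% (limma adjusted p = 0.0274 and 0.0393). Rad18 lost its call without any 1 day 1 library (limma adjusted p = 0.0507 to 0.132), and Ung did so without any 1 day 1 library or any 1 day 5 control library (limma adjusted p = 0.0679 to 0.184). The call of Palb2 was lost with a −log10 q of at least 3 (14.8 points, limma adjusted p = 0.195).

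The largest falls at day 1 were in Pcna, Apex1 and Rad9a. Pcna, the sliding clamp of DNA polymerases, went from 51.7% ± 3.88 (SD, n = 2) to being listed at 0 in both restricted libraries (limma adjusted p = 0.000113). Apex1, the abasic site nuclease, went from 51.5% to being listed at 0 (limma adjusted p = 0.00658). Rad9a, of the clamp that activates ATR, fell from 75.8% to 28.9% (limma adjusted p = 0.00115).

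At day 5 Hus1, a partner of RAD9A in that clamp, rose from 32.0% ± 2.27 to 70.2% ± 0.0547 (SD, n = 2, 38.1 points, limma adjusted p = 0.000389). Chek1, the kinase downstream of ATR, rose from 7.34% to 41.3% and Nbn, which brings ATM to breaks, from 36.8% to 64.7% (limma adjusted p = 0.0276 and 0.00734). Chek1 lost its call without any 1 day 5 library, and Nbn without day 5 control replicate 2 (24.1 points, limma adjusted p = 0.0517). Recql5, Wee1 and Rad52 fell (−42.9, −37.2 and −34.5 points, limma adjusted p = 0.000214, 0.000348 and 0.000219), and Wee1 turned to 11.1 points in lists of equal length (limma adjusted p = 0.305).

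In control medium the other repair genes fell more often than they rose. Of the 103, 13 fell and 0 rose between day 0 and day 1 by limma, where 42 had an unadjusted p under 0.05 with less cover and 0 with more. Of all tested genes 5.67% fell and 0.967% rose over that time. Between day 0 and day 5, 51 fell and 2 rose, against 15.6% and 12.2% of all tested genes, and between days 1 and 5, 27 fell and 5 rose, against 5.95% and 17.1%. As shares of the 103 the falls were 12.6%, 49.5% and 26.2%. Without any 1 library the falls numbered 1 to 20, 35 to 54 and 17 to 30. Between day 0 and day 1 they were 1 without day 1 control replicate 1, 3 without replicate 2 and 4 without day 0 replicate 1. They were 5, 6, 8 and 8 without day 5 restricted replicates 1 and 2 or day 5 control replicates 1 and 2, and 20 without day 0 replicate 2. Between days 1 and 5 they were 17 without day 1 control replicate 2 or day 5 control replicate 1, and 18 without day 5 control replicate 2. With a −log10 q of at least 3 they were 10. Their median differences were −9.47, −13.9 and −5.36 points, beside −5.31, −1.17 and 3.89 over all tested genes. The medians of the 9 members were −21.3, −41.5 and −16.5. With the compared libraries alone, 0 of the 103 fell between day 0 and day 1, and 38 had an unadjusted p under 0.05 by limma. With each library centred on its median, 1 fell and 0 rose over that time. At an unadjusted p under 0.05 by limma these were 15 and 10. Of all tested genes 1.14% fell and 2.39% rose on that scale.

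The genes with the pattern most like Atm over the 10 WT libraries were sought among 7173 genes with a range of at least 20 points. They were Ipo11, Thumpd2, Ereg, Rpp30 and Nudcd1, with Pearson correlations of 0.969 to 0.933. Those most like Helq were Ninl, Lyar, Brd9, Cep135 and Utp20, with 0.967 to 0.95. Atm and Helq correlated at 0.87 with each other, Fancm at 0.902 with Atm and 0.888 with Helq, and the other 6 members at 0.305 to 0.723 with either. Cover in Rpp30 went from 51.5% to 79.5% at day 1 and from 54.9% to 74.9% at day 5, control before restricted. The points share their libraries and list lengths, so these correlations are descriptions.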

How the data were processed

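H3K36me3 was measured by chromatin immunoprecipitation and sequencing (single-end reads of 75 nt, with Drosophila chromatin as a spike-in, per the labels' protocols). The deposited files are 20 lists of broad peaks, 1 per library, so replicates were called separately. Each peak carries the authors' fold enrichment (a ratio) and their −log10 p-value and −log10 q-value as deposited, which served only to describe or filter peaks within a list. The peak caller, its control and any use of the spike-in are not given in the sources used here, and the input was not used here. The build, GRCm38, comes from the submitters' processing notes. Depth per library is unknown, so no counting interval is given.

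Overlapping peaks of a library were merged on the 19 autosomes, X and Y (Python 3.11.15, numpy 2.4.6), and the percent of each RefSeq GRCm38.p6 gene body inside them was taken for each protein-coding gene no shorter than 2 kb. The table of promoter windows, 250 bases before to 50 after the start, gave sequences and strands. WT libraries were fitted with limma 3.58.1 (R 4.3.3, 5 groups, trend and robust settings) on genes whose cover averaged 5% or more, with Benjamini-Hochberg adjustment over all of them and calls under 0.05. WT and KO were compared by an exact permutation test within conditions on all genes. The steps were tested on simulated data. Alternatives were a −log10 q of at least 3, lists of equal length, no filter on mean cover, an arcsine scale, median-centred libraries, fits with the compared libraries alone, a replicate block and leaving out each library. The members and lists were chosen with earlier results of these data known. Named other repair genes are, per day and direction, the 3 called with the largest difference whose groups do not overlap. The separation of the members at day 5 was seen in the data. H2afx and Fancf did not match the table of genes used, and no protein sequences were used. Some results on other repair and adjoining genes are not reported here.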

Additional observations from a re-analysis of the deposited data

Results flagged for a closer look

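The effect of restriction differed between days in 2 of the named repair genes, tested as the day 5 difference minus the day 1 difference (limma, adjusted over 9514 genes, with 1.62% of genes called higher and 3.58% lower). Pcna gave 32.8 points (limma adjusted p = 0.0274), and was not called without any 1 of 7 libraries, either day 1 library of either medium, day 5 control replicate 2 or either restricted day 5 library (limma adjusted p = 0.0613 to 0.106), nor in lists of equal length or under the −log10 q filter of 3 or more (limma adjusted p = 0.0874 and 0.095). Its cover was 51.7% ± 3.88 (SD, n = 2) in control medium at day 1 and listed at 0 in both restricted libraries, against 38.9% ± 5.14 and 20% ± 0.345 (SD, n = 2) at day 5. Wee1, a kinase that holds back entry into mitosis, gave −28.8 points (limma adjusted p = 0.0414). It was not called without the filter on mean cover, on the arcsine scale, with the replicate block or under the −log10 q filter (limma adjusted p = 0.0578, 0.0664, 0.0698 and 0.241). Nor was it called without any 1 of 7 libraries, all those of days 1 and 5 other than day 1 control replicate 2 (limma adjusted p = 0.0577 to 0.139), and it turned to 11.3 points in lists of equal length. It had 65.3% ± 6.69 and 56.9% ± 0.546 (SD, n = 2) at day 1, and 68.9% ± 4.71 and 31.6% ± 2.67 (SD, n = 2) at day 5. Among all 103 other repair genes these were the only calls of this kind.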

How the results depend on the processing

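Called members falling between day 0 and day 1 numbered 5, and were 0 in lists of equal length and with the compared libraries alone, 1 with centred libraries, 3 without the filter on mean cover and 3 on the arcsine scale (0 to 6 without any 1 library). Between day 0 and day 5 they numbered 6, and 2 in lists of equal length (5 to 6 without any 1 library). Between days 1 and 5 they numbered 4, and were 0 with the −log10 q filter (3 or more) and 1 in lists of equal length (2 to 6 without any 1 library). Reversed values included Brca1 and Brca2 from day 0 to day 1 in lists of equal length (0.197 and 2.59 points) and Wee1 at day 5 (11.1 points there). The direction of Atr in control medium depended on the day 0 library kept. These, at 40.6% and 9.2%, lay on either side of its day 1 and day 5 control means of 12.1% and 30.3%. Atm had 15.9% and 23.8% in day 1 control libraries, on either side of 16.6% at day 5. Blm under restriction at day 5 turned from −0.429 to 0.512 points with the −log10 q filter and to 1.25 in lists of equal length (−1.52 to 0.664 without any 1 library). Polq at day 5 ranged from −0.103 to 1.21 without any 1 library, and Fancd2 was 0.0 with either shorter kind of list. Other repair genes called higher under restriction at day 1 (13) were 8 with the −log10 q filter, 31 in lists of equal length and 66 centred (4 to 20). Without the filter on mean cover they were 10 of 118, of which 7 were among the 103. Those called lower (19) were 10 in lists of equal length, 12 without the filter, 12 with the compared libraries alone and 5 centred (8 to 20). At day 5 those called higher (10) were 31 in lists of equal length and 74 centred (5 to 10), and those called lower (18) were 11 with the −log10 q filter and 3 centred (8 to 18). Other repair genes falling in control medium from day 0 to day 1 (13) were 21 with the −log10 q filter, 3 in lists of equal length, 7 without the filter and 7 on the arcsine scale, 1 centred, 0 with the compared libraries alone (38 unadjusted by limma) and 8 with the replicate block, crossed or not (1 to 20). From day 0 to day 5 (51) no setting moved them by over 1.5 times (35 to 54), and from day 1 to day 5 (27) they were 10 with the −log10 q filter and 46 centred (17 to 30). Calls on the difference between days, 1 each way, were 2, 10 and 2 higher with the −log10 q filter, in lists of equal length and centred (0 to 2), and 3, 9 and 5 lower with the −log10 q filter, in lists of equal length and with the compared libraries alone. They were 0 lower by limma without the filter, on the arcsine scale and with the replicate block, with 11, 12 and 11 at an unadjusted p under 0.05 (0 to 5 without any 1 library). The cause of these shifts was not tested. WT against KO kept all 7 calls under its 5 alternatives.

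Same-numbered deviations over the tested genes correlated at −0.439 between day 0 and day 1 control libraries and at −0.0834 to 0.0614 otherwise. No positive sharing by replicate number was thus seen, which cannot show whether libraries were handled in pairs. The replicate block gave 4 falling members between day 0 and day 1 (Polq lost, limma adjusted p = 0.0571), 6 between day 0 and day 5 and 4 between days 1 and 5, and 12 risen and 17 fallen other repair genes at day 1 against 10 and 17 at day 5. With the day 0 numbers crossed, an alternative chosen after seeing the data, 4 fell between day 0 and day 1. The comparison of WT and KO without restricted day 1 was also added after seeing the data. Enrichment limits these values: with a −log10 q of at least 3, 5 of the 7 tested members passed the filter on mean cover.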
